A study of Rattus norvegicus with 6 samples.

Results

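Interferon-stimulated genes and genes of the major histocompatibility complex (MHC) were examined by RNA-seq in RBL-2H3, a basophilic leukemia line of the rat that serves as a mast cell model. The rows were chosen by name, as every row whose gene symbol starts with RT1-, the name of the rat MHC, and 30 further genes known for induction by interferon or for loading peptide onto class I molecules. Of 18286 rows, 62 met this rule. They are 34 RT1 rows and 28 of the 30 named genes. Ifit1 and Xaf1 had no row and are not analysed here. Of the RT1 rows, 24 are class I and 10 class II, so the class II genes are given apart.

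The groups were RBL-2H3 cells treated with dihydrocoumarin (DHC), a lactone of sweet clover, and RBL-2H3 cells whose treatment label is none, here called control, with 3 libraries each. The series title asks about inhibition of IgE-dependent activation. All 6 samples carry 1 protocol, with sensitization by 50 ng/ml anti-DNP IgE for 12 h and stimulation by 100 ng/ml DNP-HSA antigen for 4 h. Dose and duration of DHC are not given in the labels, nor whether control cells received IgE and antigen, and no interferon is named as an agent. RBL-2H3 is a leukemia line grown in culture, and the labels name no separate culture for each library. P-values therefore reflect library-to-library spread alone, possibly of technical origin. Reads were recovered from the deposited values and summed over all gene rows. They came to 29190987 to 31299551 per library in the DHC group and 29084976 to 34170922 in the control group. Reads outside these rows are not counted. In such bulk samples fewer expressing cells and less RNA per cell cannot be told apart.

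Most of the listed mast cell markers were present. Of 12, 10 had a row and 8 averaged at least 1 RPKM (reads per kilobase of exon, scaled to the library total), with Ms4a2, the beta chain of the IgE receptor, at 369 ± 10.0 RPKM with DHC and 321 ± 15.9 RPKM in control (SD, n = 3), while the mast cell protease gene Tpsb2 had at most 0.0505 RPKM in a library. Summed, the 10 mast cell rows had 1017, 1012 and 1000.2 RPKM with DHC, against 1297, 1258 and 1241 RPKM in control. The transcription factor gene Gata2 carried this difference, at 69.9 ± 1.90 RPKM with DHC and 345 ± 10.3 RPKM in control (limma adjusted p = 5.07e-07), and the receptor gene Kit and the histamine-forming enzyme gene Hdc fell too, while Ms4a2 rose (0.0166). The 7 macrophage markers with a row summed to between 1.69 and 2.56 RPKM with DHC and between 1.31 and 1.86 RPKM in control. The 8 T and NK cell markers with a row summed to 54.5 to 57.2 RPKM with DHC and 44.7 to 52.8 RPKM in control. Most of this was Cd3e, at 41.8 ± 1.69 and 34.6 ± 2.85 RPKM, while its partners Cd3d and Cd3g were near 0. The 4 B and dendritic cell markers with a row summed to 16.4 to 17.0 RPKM with DHC and 17.1 to 18.8 RPKM in control, nearly all of it Itgax. Stromal and epithelial markers, 3 with a row, summed to 23.1 to 25.6 RPKM with DHC and 24.3 to 26.2 RPKM in control. Most of that was Col3a1, at 21.9 ± 1.44 and 23.6 ± 0.934 RPKM. The mast cell, the T and NK cell and the B and dendritic cell sums thus did not overlap between the groups. Their part in the results below was not tested.

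Class I molecules carry peptides from inside the cell to its surface and are built of a polymorphic heavy chain and the invariant light chain beta-2-microglobulin. In the rat the heavy chains come from the RT1-A region (classical class I) and from the RT1-C/E, -M, -N, -S and -T24 genes, many of them nonclassical. Interferons bind receptors that signal through JAK kinases and STAT factors, and the resulting complexes bind a short DNA element, the interferon-stimulated response element (ISRE), before antiviral genes and many class I pathway genes. In class I promoters a shortened element lies beside an NF-kB site called enhancer A.

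Promoter stretches with these elements are shown to set their letters beside the values that follow. RefSeq promoters of the build GRCr8, 250 bases before and 50 after the annotated start, were found by symbol for 50 of the 62 genes, but not for Adar or RT1-CE7. An ISRE core, spelled GAAA, any 2 bases, GAAA and searched on both strands, was in 20 of these 50 promoters, against 1312 of all 33469 promoters of that length (3.92%). It was in 17 of 21 promoters of genes outside RT1 and in 3 of 29 RT1 promoters. The following 40-base windows hold such a match, in capitals, of the 6 genes past the threshold below that had one, and of Ifih1 and Tap1, which did not pass. On the opposite strand the same core reads TTTC, any 2 bases, TTTC.

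Eif2ak2 (chr6:21941123-21941162, + strand): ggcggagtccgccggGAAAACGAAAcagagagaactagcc

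B2m (chr3:129549165-129549204, + strand): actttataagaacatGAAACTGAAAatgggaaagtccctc

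Ifit3 (chr1:241527267-241527306, + strand): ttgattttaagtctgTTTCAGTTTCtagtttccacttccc

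Gbp2 (chr2:234005681-234005720, + strand): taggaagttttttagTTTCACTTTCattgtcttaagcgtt

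Ifi27 (chr6:128355128-128355167, + strand): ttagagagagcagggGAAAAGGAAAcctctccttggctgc

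RT1-S3 (chr20:2675401-2675440, + strand): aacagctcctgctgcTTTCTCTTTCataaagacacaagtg

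Ifih1 (chr3:67684003-67684042, - strand): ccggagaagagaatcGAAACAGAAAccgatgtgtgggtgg

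Tap1 (chr20:4668640-4668679, - strand): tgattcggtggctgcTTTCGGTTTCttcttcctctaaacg

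The core was thus present in genes that moved in opposite directions. It was in 2 of 2 promoters of genes that rose, 4 of 6 of genes that fell, 11 of 25 of genes tested that did not pass and 3 of 17 of genes too low to test. These counts mix RT1 promoters, where 3 of 29 held the core, with the others, where 17 of 21 did. Both genes that rose lie outside RT1, so the mix differs by call. A link of the core with the calls was not tested. In Eif2ak2 the match begins 16 bases before the start, in Gbp2 31, in Ifit3 44 and in B2m 150. A match is a run of letters and not a shown binding site.

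Some class I heavy chain promoters had a different arrangement. The NF-kB core, spelled GGGGA, any base, TCCC, in 101 of all promoters (0.302%), was in 5 of 29 RT1 promoters, those of RT1-A1, RT1-A2, RT1-CE4, RT1-CE10 and RT1-CE16, and in none of the others searched. Each of these also held the shortened element, spelled GAA, any 2 bases, GAAA, downstream of the NF-kB core. At any place, the shortened element was in 9 of 29 RT1 promoters and 7 of 21 promoters of genes outside RT1, against 8.54% of all promoters. The RT1 promoters include some of class II genes. The spellings differ in spacing, and a match to one can overlap a match to the other. The promoters of RT1-A2 and RT1-CE4, abundant heavy chain genes that did not pass the test, are given with both elements in capitals, the NF-kB core first, where its matches on the 2 strands overlap by all but 1 base.

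RT1-A2 (chr20:4872621-4872920, + strand): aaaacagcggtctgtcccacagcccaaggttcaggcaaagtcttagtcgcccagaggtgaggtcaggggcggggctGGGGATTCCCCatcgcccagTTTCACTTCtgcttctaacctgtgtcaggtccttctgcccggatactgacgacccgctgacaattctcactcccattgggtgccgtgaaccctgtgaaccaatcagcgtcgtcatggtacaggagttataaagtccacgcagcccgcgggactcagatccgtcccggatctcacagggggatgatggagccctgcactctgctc

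RT1-CE4 (chr20:3509107-3509406, - strand): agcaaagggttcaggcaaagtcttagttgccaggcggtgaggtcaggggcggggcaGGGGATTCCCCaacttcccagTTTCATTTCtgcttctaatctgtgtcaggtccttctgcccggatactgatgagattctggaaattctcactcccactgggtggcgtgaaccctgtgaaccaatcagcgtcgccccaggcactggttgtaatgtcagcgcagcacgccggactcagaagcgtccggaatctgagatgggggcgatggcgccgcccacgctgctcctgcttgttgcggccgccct

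Of the rows tested, 24.4% passed with DHC, and those that did differed by at most 1.56-fold, except Ifit3. Rows that did not pass are not thereby shown to be alike, and Oasl, at 1.62-fold lower in the mean, was among them. Of the 62 rows, 41 had a mean of at least 1 RPKM over the 6 libraries and were tested. Of these, 2 rose, the kinase gene Eif2ak2 and the light chain gene B2m. Another 8 fell, the heavy chain genes RT1-T24-4, RT1-CE1, RT1-S3 and RT1-CE7, the RNA-editing gene Adar, the antiviral genes Ifit3 and Ifi27 and the GTPase gene Gbp2. Over all 10667 genes tested, 18.4% rose and 16.1% fell, 34.5% in all (limma, adjusted p below 0.05). The 24.4% of these 41 rows that passed was below the share of all genes. By direction, the 2 of 41 that rose were below the 18.4%, while the 8 of 41 that fell were not below the 16.1%. The split of all genes depended on scaling, with 1285 higher and 2114 lower under trimmed-mean and 1365 higher and 2048 lower under median-of-ratios scaling, against 1968 higher and 1717 lower without it. Of the 41 rows, 1 rose and 11 fell under either scaling. The groups did not overlap in 4 rows with DHC higher, where 28.1% of all genes did so, and in 12 with DHC lower, where 21.6% of all genes did so, 49.7% of all genes in either direction. The median difference was −0.07 on the log2 scale of RPKM + 1, against 0.05 over all genes. Rows that passed the filter mostly through 1 group had to differ, which applies to Ifit3, Oasl and Isg15, whose mean lay below 1 RPKM with DHC and above it in control.

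**Figure D1:**
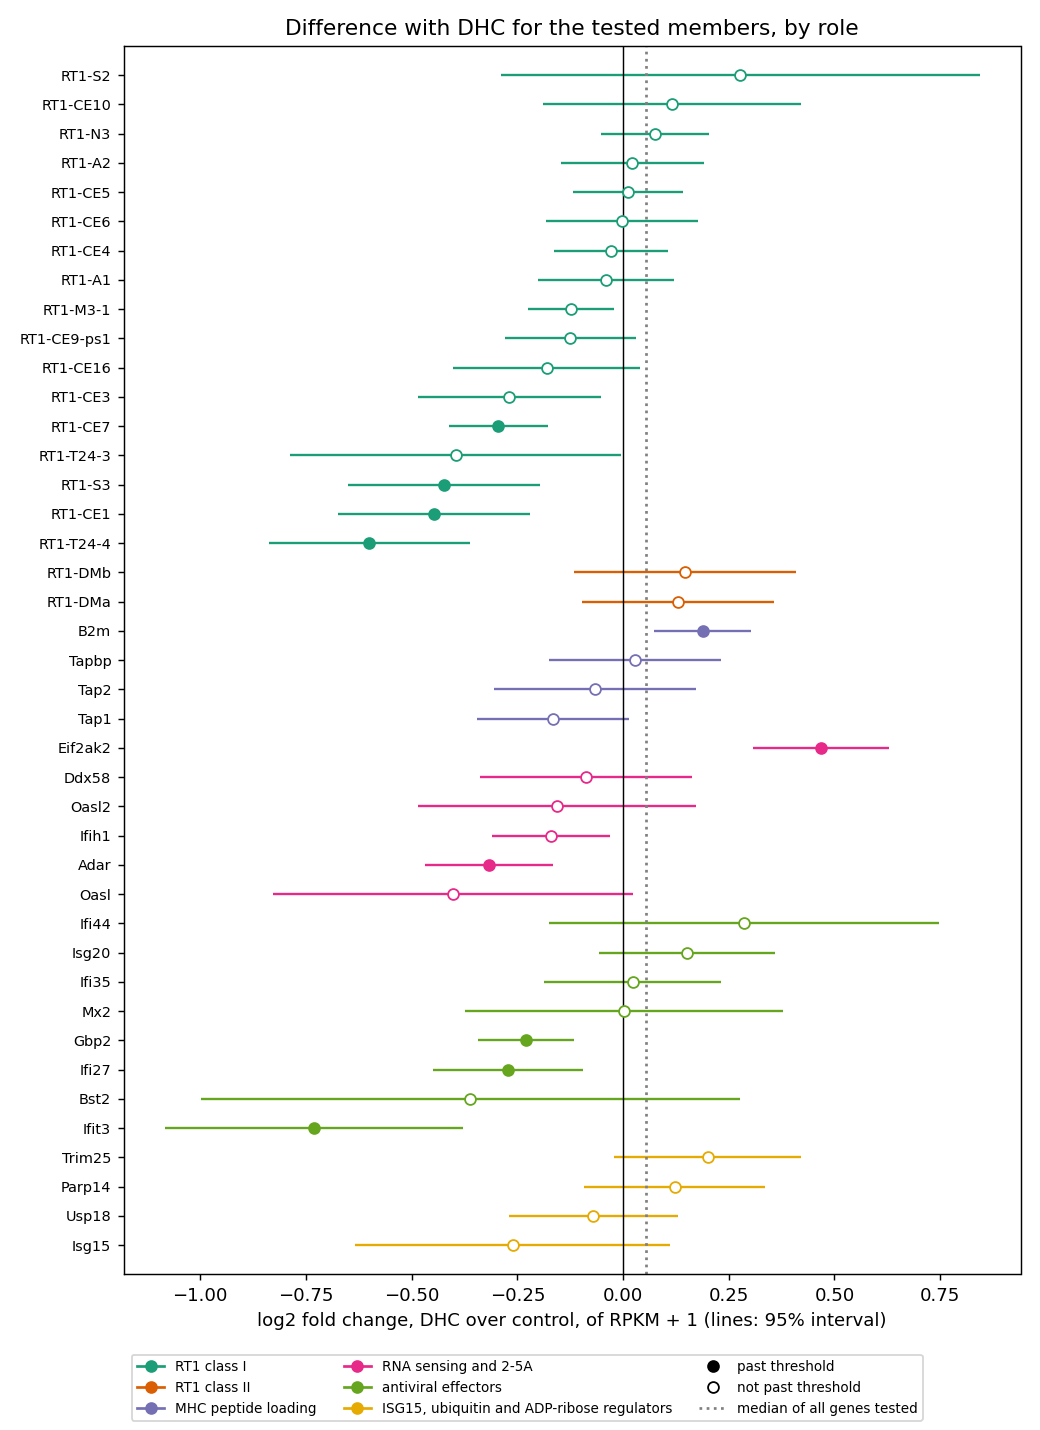
Difference between DHC and control for the 41 rows tested, as log2 fold change of RPKM + 1 on the horizontal axis, with 95% intervals as lines and colours for the role of the gene. Filled points passed the threshold, and of these 2 lie right of 0 (Eif2ak2 and B2m) and 8 left of it, the lowest being Ifit3.

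Class I heavy chain genes were among the well expressed rows. Of 24, 17 were tested, 4 fell and none rose by limma at the threshold. That is 23.5% called, all lower. Of all genes 34.5% were called, 16.1% lower and 18.4% higher. The groups did not overlap in 7 of the 17 with DHC lower, where 21.6% of all genes did so. With DHC higher these were 0, against 28.1% of all genes. Summed over the 24 rows, the heavy chains had 479, 495 and 494 RPKM with DHC, against 506, 544 and 543 RPKM in control. The sums did not overlap, and the DHC mean was 0.921 times the control mean (489 ± 9.07 and 531 ± 21.7 RPKM, SD, n = 3). On the log2 scale this ratio was −0.12, and −0.19 under trimmed-mean scaling. Heavy chain genes resemble each other in sequence, which was not measured here, and several rows share exons. The division of reads among them is therefore uncertain. The sum is less touched by this but not free of it, since row lengths differ. Summed as reads scaled to the library total, without length (RPM), the DHC mean was 0.918 times the control mean (1106 ± 24.3 and 1204 ± 56.1 RPM).

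RT1-T24-4, a nonclassical class I gene (Rnor_6.0, chromosome 20, 3189473 to 3197457), had 10.8, 8.25 and 8.49 RPKM with DHC, against 15.0, 13.7 and 14.4 RPKM in control. All 3 DHC libraries were below all control libraries, and the level was 1.56-fold lower with DHC (log2 fold change −0.60 ± 0.10, SE, limma adjusted p = 0.0037). Its neighbour RT1-S3 (3176107 to 3179818) had 11.2, 9.53 and 9.89 RPKM with DHC, against 15.7, 12.4 and 14.1 RPKM in control. This too was a difference without overlap, 1.38-fold lower (−0.42 ± 0.10, adjusted p = 0.0136), but the call ended without DHC replicate 2 (0.0528). No other row of the table shares exon bases with either gene. Of the rows beside them, RT1-T24-3 had 1.22 to 2.22 RPKM with DHC and 2.11 to 3.01 RPKM in control, overlapping ranges that did not pass (adjusted p = 0.107), but it passed without DHC replicate 1 (0.0372). RT1-N3, which lies on the other side of RT1-S3, had 22.7, 22.4 and 21.7 RPKM with DHC and 22.0, 20.2 and 20.9 RPKM in control (0.08 ± 0.05, adjusted p = 0.311), and a row on the opposite strand shares 29.7% of its exon bases. Within this stretch of the MHC, then, rows that fell stood next to one that did not pass and whose 95% interval was −0.05 to 0.20.

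In the RT1-C/E region, RT1-CE7 (chromosome 20, 4694472 to 4896970) had 52.0, 52.7 and 53.2 RPKM with DHC, against 63.3, 68.7 and 62.6 RPKM in control. The groups did not overlap, and it was 1.23-fold lower with DHC (−0.29 ± 0.05, adjusted p = 0.00371). RT1-CE1 (4638663 to 4943564) had 25.1, 30.5 and 28.6 RPKM with DHC, against 33.9, 41.8 and 40.4 RPKM in control, 1.38-fold lower without overlap (−0.45 ± 0.10, adjusted p = 0.0107). The annotation spreads both over more than 1 place, with exons in 3 groups for RT1-CE7 and 5 for RT1-CE1 when gaps over 20000 bases divide them, and other rows share 7.46% of the exon bases of RT1-CE7 and 39.1% of those of RT1-CE1. Their values therefore cannot be tied to 1 gene copy. RT1-CE3, with 5.56 to 6.06 RPKM with DHC and 6.42 to 8.13 RPKM in control, did not overlap between groups and missed the threshold (adjusted p = 0.0588), but passed it without control replicate 1 (0.0262) and after trimmed-mean (0.0335) or median-of-ratios scaling (0.0363).

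Other C/E rows of high level did not pass. RT1-CE5 had 69.4, 73.6 and 73.0 RPKM with DHC and 66.8, 72.7 and 74.9 RPKM in control, and its 95% interval was −0.12 to 0.14 on the log2 scale. RT1-CE4 had 53.9, 57.1 and 53.1 RPKM with DHC and 52.1, 58.0 and 57.4 RPKM in control, with an interval of −0.16 to 0.11. In both rows the DHC values lay within the range of control. Other rows share 35.4% of the exon bases of RT1-CE5 and 25.45% of those of RT1-CE4. RT1-CE7 is among those sharing with RT1-CE5, and RT1-CE1 among those sharing with RT1-CE4. The exons of RT1-CE4 lie in 4 groups. Values of RT1-CE5 and RT1-CE4 thus cannot be tied to 1 gene copy either. RT1-CE9-ps1, named as a pseudogene, had 15.9, 15.2 and 16.0 RPKM with DHC and 16.7, 18.7 and 16.3 RPKM in control, without overlap and without a call (adjusted p = 0.185). The lower rows RT1-CE6, RT1-CE10 and RT1-CE16 had between 2.29 and 7.44 RPKM with DHC and between 2.24 and 8.36 RPKM in control, and none passed. Shared exon bases made up 31.3% of RT1-CE9-ps1, 83.8% of RT1-CE6 and 29.4% of RT1-CE3. RT1-S2, at 1.05 to 2.13 RPKM with DHC and 0.697 to 1.98 RPKM in control, overlapped and had the widest interval of the class I rows, −0.29 to 0.84.

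The classical heavy chain genes were among those that did not pass. RT1-A2 (chromosome 20, 5374985 to 5378539), the class I row with the highest level, had 85.4, 91.7 and 96.8 RPKM with DHC, against 81.7, 92.8 and 95.6 RPKM in control. These ranges overlapped nearly whole (log2 fold change 0.02 ± 0.07, interval −0.15 to 0.19, adjusted p = 0.842). RT1-A1, with which it shares 32.7% of its exon bases, had 27.5, 30.0 and 29.5 RPKM with DHC and 27.3, 30.5 and 31.8 RPKM in control (interval −0.20 to 0.12). Together both A rows had 120.3 ± 6.77 RPKM with DHC and 119.9 ± 9.64 RPKM in control, while the 9 C/E rows had 243 ± 6.08 RPKM with DHC and 270.3 ± 14.4 RPKM in control. RT1-M3-1, a nonclassical gene whose mouse counterpart H2-M3 presents bacterial formylated peptides, had 78.4, 79.1 and 79.1 RPKM with DHC and 82.7, 86.3 and 88.9 RPKM in control. The groups did not overlap and it missed the threshold (−0.12 ± 0.04, adjusted p = 0.0637), but it passed after trimmed-mean scaling (0.0194), after median-of-ratios scaling (0.0219), or once control replicate 1 was left out (0.037). The other 7 class I rows were too low to test, with at most 47 reads in a library.

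**Figure D2:**
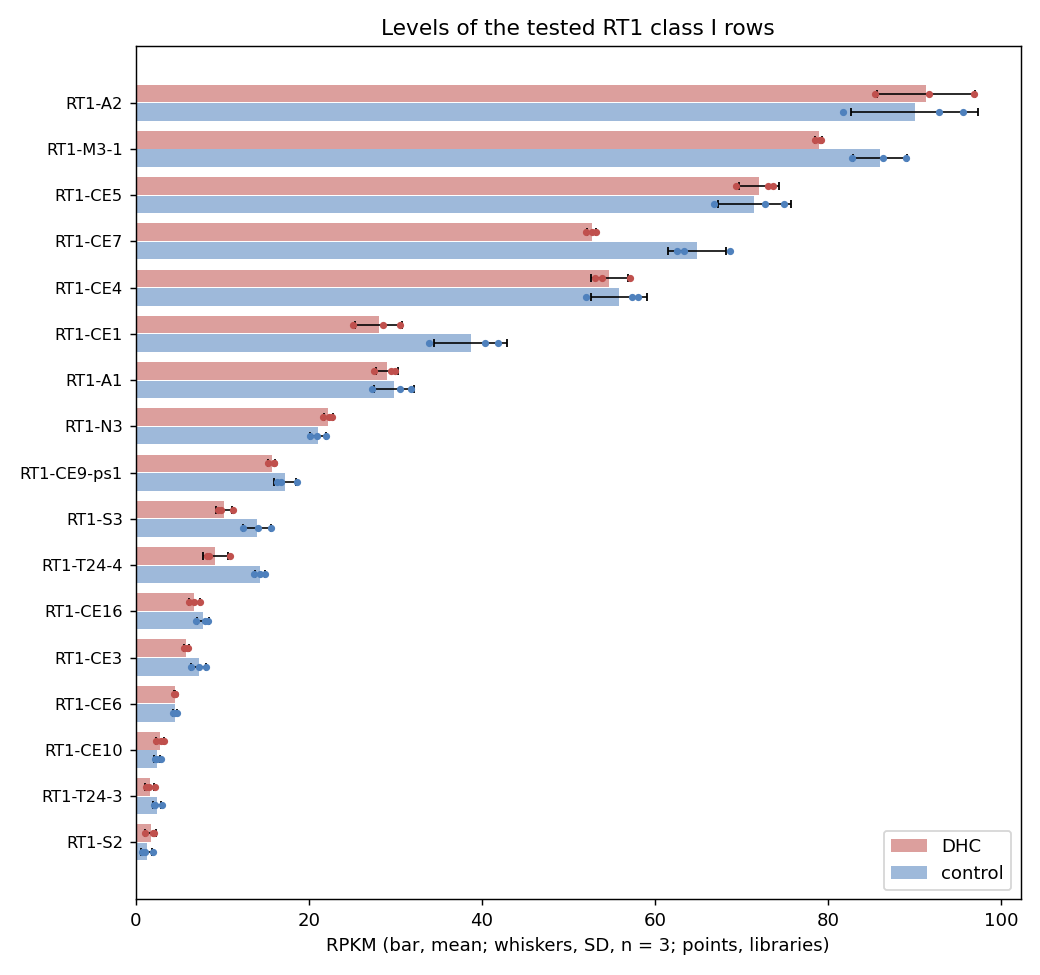
RPKM of the 17 tested class I rows, with bars for the mean of DHC (upper) and control (lower), whiskers for the SD over 3 libraries and points for single libraries. The bars of RT1-CE7, RT1-CE1, RT1-S3 and RT1-T24-4 are shorter with DHC with no shared values, while those of RT1-A2, the longest, overlap.

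The light chain went the other way from the heavy chain rows that passed. B2m (chromosome 3, 114087287 to 114093309), with the highest RPKM of all 62 rows, had 329.9, 325 and 304 RPKM with DHC, against 292, 275 and 273 RPKM in control. All DHC libraries were above all control libraries, by 1.14-fold in the mean (log2 fold change 0.19 ± 0.05, adjusted p = 0.0219). The size is small and the call ended after trimmed-mean scaling (0.12, adjusted p = 0.0817) and after median-of-ratios scaling (0.13, 0.0669), and also without DHC replicate 1 (0.0557) or 2 (0.084), and without control replicate 2 (0.0775) or 3 (0.0711). The sign stayed positive in all 15 alternatives run.

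The transporter genes and the tapasin gene did not pass. Tap1, a subunit of the transporter that moves peptides into the endoplasmic reticulum, had 26.3, 29.7 and 28.3 RPKM with DHC and 28.4, 33.2 and 33.3 RPKM in control (interval −0.34 to 0.02, adjusted p = 0.137), and passed as lower without control replicate 1 (0.0354). Tap2, its partner, had 32.5, 41.2 and 40.8 RPKM with DHC and 37.1, 38.8 and 43.7 RPKM in control. Tapbp, which encodes tapasin, the bridge between transporter and heavy chain, had 33.4, 29.8 and 29.1 RPKM with DHC and 26.6, 31.7 and 32.2 RPKM in control. In all 3 the groups overlapped, and a row on the opposite strand shares 6.57% of the exon bases of Tapbp. Nlrc5, the transactivator of class I genes, lay below the filter, with 152, 148 and 133 reads with DHC and 133, 90 and 120 reads in control. These are 0.837 ± 0.0506 and 0.637 ± 0.112 RPKM. In RPKM the groups did not overlap, with 0.794 to 0.893 with DHC and 0.539 to 0.759 in control. The difference was not tested.

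Class II genes, which present peptides from outside the cell in professional antigen-presenting cells, were nearly silent. Of 10 rows 2 were tested, RT1-DMa and RT1-DMb, which encode the peptide exchange factor of class II loading. RT1-DMa had 3.03 to 3.35 RPKM with DHC and 2.60 to 3.19 RPKM in control, RT1-DMb 2.99 to 3.52 and 2.41 to 3.15 RPKM, and neither passed (adjusted p = 0.329 and 0.346). Both have exons in 2 distant groups. The peptide-presenting chains RT1-Ba, RT1-Bb, RT1-Da, RT1-Db1, RT1-Db2 and RT1-Ha had at most 8 reads in any library, and RT1-DOa and RT1-DOb, modulators of the exchange factor, at most 2 and 12. Ciita, the class II transactivator, had at most 2 reads in a DHC library and 6 in a control library, and Cd74, the class II chaperone, averaged 0.996 ± 0.318 RPKM with DHC and 0.859 ± 0.193 RPKM in control. Floors of 3 reads correspond to between 0.0878 and 0.103 RPM (reads scaled to the library total, without length), which cover counting error only.

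Among sensors of viral RNA and enzymes of the response, 6 of 7 genes were tested, 1 rose and 1 fell. That is 33.3% called, near the 34.5% of all genes. Eif2ak2, which encodes PKR, a kinase that binds double-stranded RNA and stops translation (chromosome 6, 1428834 to 1466201), had 34.1, 37.0 and 33.0 RPKM with DHC, against 26.8, 23.5 and 24.1 RPKM in control. Every DHC library was above every control library, by 1.40-fold in the mean (0.47 ± 0.07, adjusted p = 0.00199). Adar, which edits double-stranded RNA and thereby keeps it from such sensors (chromosome 2, 189062443 to 189083236), had 16.2, 15.0 and 16.3 RPKM with DHC, against 21.1, 18.7 and 20.2 RPKM in control. It was 1.26-fold lower with no overlap (−0.32 ± 0.07, adjusted p = 0.00845). Both calls held in all 15 alternatives, with adjusted p between 2.1e-05 and 0.0104 for Eif2ak2 and between 0.000957 and 0.0378 for Adar.

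Ifih1, the sensor MDA5, had 17.5, 17.6 and 18.3 RPKM with DHC, against 21.3, 19.9 and 19.2 RPKM in control. The groups did not overlap, and the adjusted p of 0.0604 (−0.17 ± 0.06) became 0.0187 after trimmed-mean scaling, 0.0226 after median-of-ratios scaling and 0.0372 in limma-voom. Ddx58, the sensor RIG-I, had 1.87 to 2.40 RPKM with DHC and 2.28 to 2.50 RPKM in control and did not pass (adjusted p = 0.563). Oasl and Oasl2, relatives of the oligoadenylate synthetases, overlapped between the groups, with 0.512 to 1.40 and 1.75 to 2.90 RPKM with DHC and 1.32 to 1.76 and 2.48 to 2.87 RPKM in control, and neither passed. Oasl passed as lower without DHC replicate 1 (−0.57, adjusted p = 0.0413) and with limma-voom (−0.81, 0.0314). Oas1a, an oligoadenylate synthetase gene below the filter, had 58, 28 and 41 reads with DHC and 43, 58 and 67 reads in control.

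Of 13 antiviral effectors listed, 11 had a row and 8 were tested, 3 fell and none rose by limma at the threshold. These are 37.5% called, all lower. Of all genes 34.5% were called, 16.1% lower and 18.4% higher. Ifit3, among the 3 that fell, passed the filter through its control level. Gbp2, an interferon-inducible guanylate-binding protein gene (chromosome 2, 248276709 to 248293784), had 55.1, 53.1 and 51.8 RPKM with DHC, against 64.6, 63.2 and 60.3 RPKM in control. It was 1.18-fold lower with no overlap (−0.23 ± 0.05, adjusted p = 0.00949). Ifi27, an interferon alpha-inducible gene of a family of small membrane proteins, had 19.3, 20.8 and 18.0 RPKM with DHC, against 25.6, 22.6 and 22.4 RPKM in control, also without overlap (−0.27 ± 0.08, adjusted p = 0.0291). The Ifi27 call ended without DHC replicate 1 (0.0609) or 3 (0.0896), without control replicate 1 (0.0704) or 2 (0.0527), and with no filter on low values (0.0598).

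Ifit3, of the family of tetratricopeptide antiviral proteins (chromosome 1, 252906234 to 252911382), had 0.857, 0.406 and 0.737 RPKM with DHC, against 1.92, 1.45 and 1.90 RPKM in control. This was the largest fold among the rows that passed, 2.63-fold lower in RPKM. It was −0.73 ± 0.15 on the log2(RPKM + 1) scale, which understates it (limma adjusted p = 0.0088). The mean was below 1 RPKM with DHC (0.667) and above it in control (1.76). Ifit3 thus passed the filter through control and had to differ, so its fold and call are not independent of the filter. With a pseudocount of 0.1 the difference was −1.32. Its relative Ifit2 was lower still and below the filter, with 28, 40 and 20 reads with DHC and 38, 40 and 27 reads in control. The ranges of Ifit2 thus overlapped, so that the 2 genes are given side by side and their difference was not tested.

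Of the other effectors, Isg20, an exonuclease gene, had 8.12 to 9.96 RPKM with DHC and 7.37 to 8.03 RPKM in control, without overlap and without a call (adjusted p = 0.227). Ifi35, Ifi44, Bst2, the tetherin gene, and Mx2, a dynamin-like GTPase gene, overlapped between groups and did not pass. They ranged from 0.573 to 5.50 RPKM with DHC and from 0.914 to 5.52 RPKM in control. Control replicate 1 stood apart for Ifi44, at 2.18 RPKM against 0.914 and 0.977 RPKM in the other control libraries, and without it Ifi44 passed as higher with DHC (0.52, adjusted p = 0.0203). Mx1 had 34 to 74 reads with DHC and 12 to 48 reads in control, and Rsad2, the viperin gene, 0 to 10 and 0 to 8 reads.

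**Figure D3:**
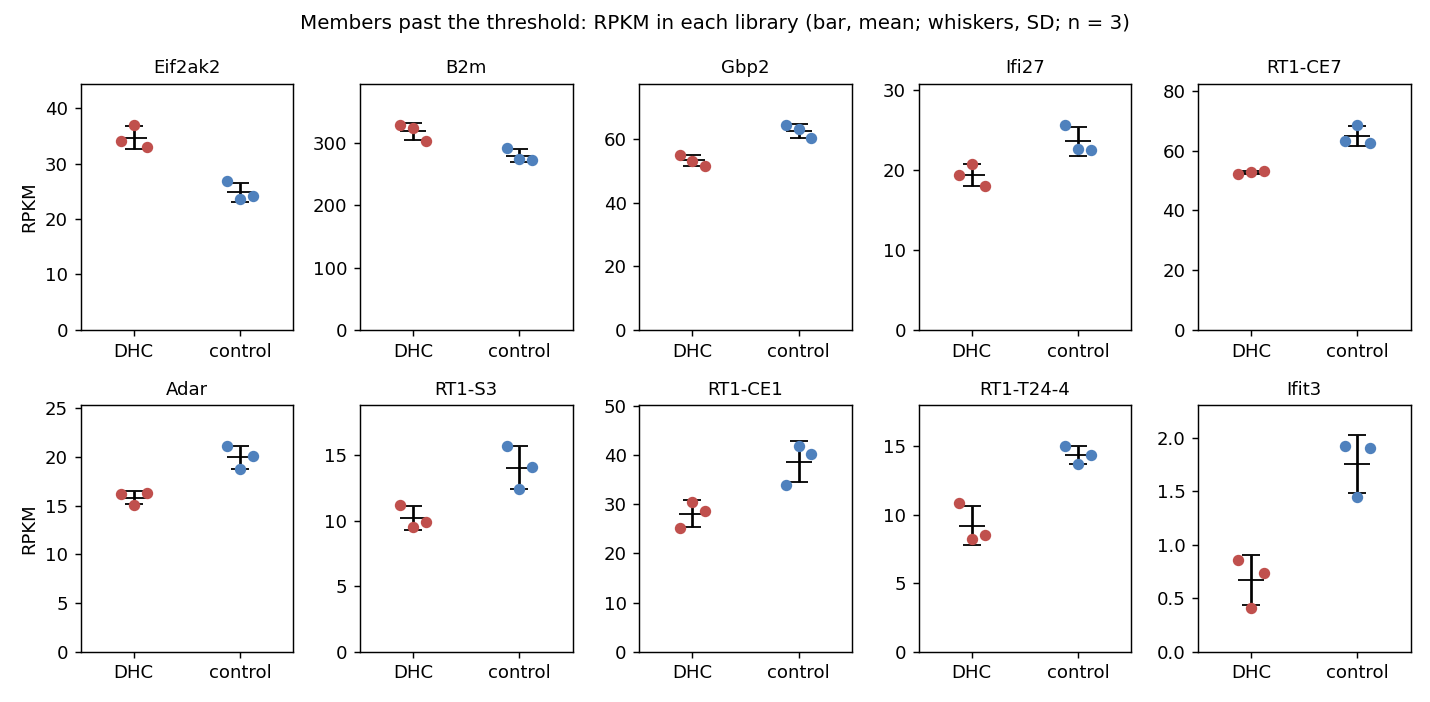
RPKM in every library of the rows that passed the threshold, DHC left and control right in each panel, with bars for the mean and whiskers for the SD (n = 3). Eif2ak2 and B2m are higher with DHC and the other 8 lower, and in no panel do the groups share values.

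Genes of the ISG15 system and related regulators did not pass. Isg15, a ubiquitin-like modifier that interferon strongly induces, had 0.584 to 1.18 RPKM with DHC and 0.98 to 1.41 RPKM in control (adjusted p = 0.24). Usp18, which removes Isg15 and limits receptor signalling, had 14.3, 11.9 and 12.2 RPKM with DHC and 13.8, 14.1 and 12.4 RPKM in control (interval −0.27 to 0.13, adjusted p = 0.559). Trim25, the ubiquitin ligase of RIG-I, had 6.18 to 7.38 RPKM with DHC and 5.10 to 6.12 RPKM in control, without overlap and without a call (0.20 ± 0.09, adjusted p = 0.141). Parp14, an ADP-ribosyltransferase gene, had 4.04 to 4.85 and 3.69 to 4.12 RPKM (adjusted p = 0.332). The chemokine gene Cxcl10 was hardly detected, with 12, 2 and 8 reads with DHC and 21, 12 and 0 reads in control.

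Other genes of the pathway, from lists of 108 genes, were counted in the same test. Of these, 92 had a row and 65 were tested, 13 rose and 14 fell, 41.5% against 34.5% of all genes. The median of the 65 was 0.05 on the log2 scale, the same as over all genes. Of the interferon genes listed, Ifna5, Ifna11 and Ifnl3 had a row, with at most 6 reads in a library. Both directions occurred among kinase and STAT genes, regulatory factors, sensors and feedback genes, while the receptor genes called were lower.

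Of 12 receptor, kinase and STAT genes 2 rose and 3 fell, 41.7% against 34.5% of all genes. Stat2, the STAT of type I interferon signalling, had 14.2, 14.2 and 14.5 RPKM with DHC, against 8.36, 8.40 and 8.56 RPKM in control, 1.70-fold higher (adjusted p = 0.000124). Irf9, which binds the ISRE together with Stat2, had 7.42, 8.66 and 7.42 RPKM with DHC, against 12.5, 12.8 and 12.2 RPKM in control, 1.60-fold lower (0.000874). These partners thus moved in opposite directions. The receptor chain genes Ifnar1 and Ifngr2 fell 1.56-fold and 1.71-fold (0.0016 and 0.000304), and the kinase gene Jak2 1.31-fold (0.00338). Its relative Jak1, named after its values were seen, rose (log2 fold change 0.26 ± 0.05, adjusted p = 0.006). Of 6 tested interferon regulatory factor genes 2 rose and 2 fell, 66.7% against 34.5% of all genes. Beside Irf9, Irf5 averaged 15.6 ± 1.52 RPKM with DHC and 30.3 ± 1.03 RPKM in control (adjusted p = 0.000128), Irf1 16.8 ± 0.508 and 9.28 ± 0.588 RPKM (0.00014), and Irf4 2.00 ± 0.073 and 1.23 ± 0.0674 RPKM (adjusted p = 0.0158), a call that ended without DHC replicate 2 (0.0528) or 3 (0.053). Irf7, which amplifies the type I response, was below the filter at 0.489 ± 0.0054 and 0.477 ± 0.178 RPKM.

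Of 8 tested sensing and adaptor genes 2 rose and 2 fell, 50% against 34.5% of all genes. Mb21d1, the DNA sensor cGAS, averaged 7.48 ± 0.593 RPKM with DHC and 4.48 ± 0.47 RPKM in control (adjusted p = 0.00219), and the adaptor Myd88 22.8 ± 1.15 and 30.1 ± 2.53 RPKM (0.00565). Traf3 rose 1.28-fold (0.0124, and 0.0502 without DHC replicate 2). Trex1, a DNA exonuclease gene, fell 1.64-fold at an adjusted p of 0.0488, a call that ended in each of the 6 fits that left out a library (0.06 to 0.145). Of 19 other interferon-stimulated genes tested 3 rose and 4 fell, 36.8% against 34.5% of all genes. Trim21, an antibody receptor in the cytosol, rose 1.32-fold (0.00462) and Rnf213 1.47-fold (0.0281), while Pml fell 1.65-fold (0.0236) and Ifi27l2b, a relative of Ifi27, 1.32-fold (0.0275). The call of Rnf213 ended without any of DHC replicates 1, 2 and 3 or control replicates 2 and 3 (0.0645 to 0.0867). That of Pml ended without DHC replicate 1, 2 or 3 or control replicate 1 or 3 (0.0561 to 0.0757), and that of Ifi27l2b without DHC replicate 1 or 3 or control replicate 2 or 3 (0.0594 to 0.0755).

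Of 10 immunoproteasome and endoplasmic reticulum genes of class I loading 20% passed by limma at the threshold. Of all genes 34.5% passed, 18.4% higher and 16.1% lower. Of the 10, 2 rose and none fell. They were the chaperone genes Canx, at 431 ± 5.46 RPKM with DHC and 361 ± 5.11 RPKM in control (adjusted p = 0.00165), and Pdia3, at 428 ± 26.2 and 353 ± 7.04 RPKM (0.00604), which also serve the folding of many other glycoproteins. The immunoproteasome gene Psmb8 had 79.5, 84.0 and 86.1 RPKM with DHC and 81.7, 84.4 and 86.6 RPKM in control (0.795). Psmb9 had 42.2, 45.5 and 48.9 RPKM with DHC and 35.7, 38.9 and 42.7 RPKM in control (0.0724), and passed as higher without DHC replicate 1 (0.0491) or control replicate 3 (0.0414) and with limma-voom (0.0343). The 3 tested genes of the class II pathway outside RT1 did not pass. Of 7 feedback inhibitors 2 rose and 3 fell, 71.4% against 34.5% of all genes. Socs3 had 14.5, 18.0 and 21.4 RPKM with DHC, against 4.51, 3.82 and 4.61 RPKM in control, and Cish, of the same family, averaged 2.92 ± 0.531 RPKM with DHC and 5.11 ± 0.808 RPKM in control, so that the 2 relatives moved in opposite directions (adjusted p = 8.26e-05 and 0.0104). Socs1, of the same family and named after its values were seen, also fell. It averaged 1.99 ± 0.298 RPKM with DHC and 3.49 ± 0.966 RPKM in control (limma adjusted p = 0.0314). The phosphatase gene Ptpn11 rose 1.24-fold (0.00411) and Ptpn6 fell 1.22-fold (0.0175, and 0.0505 and 0.0572 without control replicate 2 or 3).

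**Figure D4:**
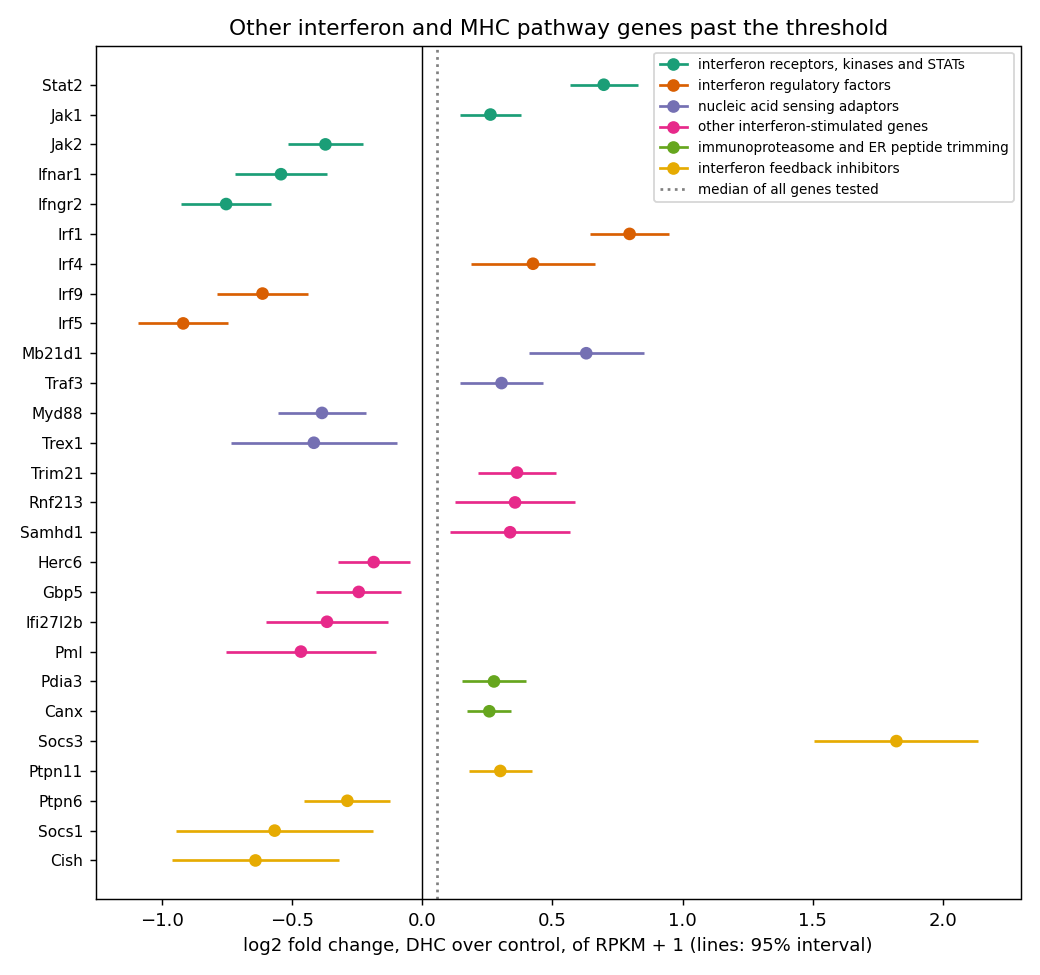
Log2 fold change of RPKM + 1, DHC over control, with 95% intervals, for the 27 pathway genes outside the chosen rows that passed the threshold, coloured by list. The 13 genes right of 0 and the 14 left of it occur in the same lists, except that Canx and Pdia3 both lie right, and Socs3 lies farthest right at 1.82.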

How the data were processed

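RNA-seq was measured in 3 DHC and 3 control libraries. The tools listed, per the submitters' processing notes, are edgeR 3.12.1, Subread 1.5.1 with featureCounts, and Trimmomatic 0.36, on Rnor_6.0. For aligner, annotation release and strand setting nothing is stated (not given in the sources used here). The authors deposited 1 RPKM value per gene and library with exon coordinates and length, per the file headers. Values times length gave whole reads within 0.01 for 100% of values. The deposited RPKM carry no scaling beyond library totals.

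The genes and lists were chosen with earlier results of these data known. From the RPKM, limma 3.58.1 in R 4.3.3 was fitted with a trended variance on log2(RPKM + 1) for the 10667 genes that averaged 1 RPKM or more over the 6 libraries. The model held group alone, and p-values were adjusted by Benjamini-Hochberg over these genes. Log2 values are on that scale, and folds are ratios of mean RPKM. The fit was tested on simulated reads. Values of every library are given for rows that passed or averaged at least 10 RPKM, and from each pathway list up to 4 called genes with the lowest p and a fixed set of partner genes were named, of which 1 is not reported here; Ifi44, Oasl, Nlrc5 and other rows below 10 RPKM were given values after these were seen. Alternatives were trimmed-mean and median-of-ratios scaling, other filters (0.5 RPKM or none) and pseudocounts (0.1 and 0.5), limma-voom on recovered reads, a replicate block and leaving out each library. Leaving out both libraries numbered 1, and the class I sum in RPM, were added after seeing the data. The planned description of summed class I RPKM has no test.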

Additional observations from a re-analysis of the deposited data

How the results depend on the processing

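Of 615 values for the 41 tested rows under 15 alternatives, 548 kept direction and side of the threshold, 13 lost a call, 22 gained one and 32 turned sign. Calls of Adar, Eif2ak2, Gbp2, Ifit3, RT1-CE1, RT1-CE7 and RT1-T24-4 held in all 15, though Ifit3 passed the main filter through its control level. The 2 rows that rose became 1 under trimmed-mean and 1 under median-of-ratios scaling, 4 without both libraries numbered 1, and 1 to 3 with a library left out. The 8 that fell became 11 under each of these scalings and 7 to 10 with a library left out. For RT1 rows these counts were 0 higher and 3 to 6 lower, with 1 higher without both libraries numbered 1. For interferon-stimulated genes outside RT1 they were 1 higher and 5 lower under either scaling, and 1 higher and 6 lower with limma-voom. With a library left out, 1 to 2 of these genes were higher and 3 to 4 lower. Without both libraries numbered 1, 2 of them were higher. Over all genes 1285 rose and 2114 fell under trimmed-mean scaling, 1365 rose and 2048 fell under median-of-ratios scaling, and 1201 to 1746 rose and 1275 to 1609 fell with a library left out. The 14 pathway genes that fell became 9 with no filter on low values and 8 to 11 with a library left out, and the 13 that rose 9 to 13. The log2 ratio of summed class I RPKM, −0.12, was −0.19 under trimmed-mean scaling and −0.15 to −0.10 with a library left out. Trimmed-mean and median-of-ratios scaling moved the all-gene median of 0.05 to about 0.

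Sign reversals were small and in rows that did not pass. Under trimmed-mean, then median-of-ratios scaling, the difference was −0.0331 and −0.0249 for Ifi35, −0.0354 and −0.0299 for Mx2, −0.0543 and −0.0447 for RT1-CE5, −0.0443 and −0.0346 for RT1-A2, and −0.0357 and −0.0263 for Tapbp. Mx2 was also −0.0050 and −0.00031 with pseudocounts of 0.1 and 0.5. Without both libraries numbered 1, Ifi35 was −0.0501, Mx2 −0.0634, RT1-CE5 −0.0101 and Tapbp −0.115. With a library left out, the range was −0.0269 to 0.079 for Ifi35, −0.124 to 0.121 for Mx2, −0.124 to 0.0427 for Tap2, −0.0766 to 0.00019 for RT1-CE4, −0.035 to 0.0281 for RT1-CE6, −0.0364 to 0.0458 for RT1-CE5, −0.101 to 0.0057 for RT1-A1, −0.0459 to 0.0681 for RT1-A2, −0.0567 to 0.0768 for Tapbp and −0.0433 to 0.0139 for Psmb8. The cause was not tested.

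With the replicate number as a block, 2 rows rose and 11 fell, RT1-M3-1 (adjusted p = 0.0379), RT1-T24-3 (0.0334) and Tap1 (0.0348) being the added calls. Psmb9 then passed at 0.0082, and 2426 genes rose and 1907 fell over all genes. Deviations of same-numbered libraries correlated at 0.228, −0.0495 and 0.0828 for numbers 1, 2 and 3, and not every library correlated best with its own number. The second principal component (12.8% of variance) did order the numbers alike, at 11.5, −2.15 and −8.35 for DHC and 12.1, −2.49 and −10.7 for control libraries 1, 2 and 3. The labels do not say that a number marks a shared culture or day, so pairing is a hint from the data and was not used in the reported test. Depth limits the rows under 1 RPKM, where 3 reads are 0.0878 to 0.103 RPM (reads scaled to the library total).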
